A study of Mus musculus with 6 samples.

Results

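Complement components and regulators were followed as 9 genes out of 29587 rows of the deposited table: C1ra, C1s1, C4b, C3, Cfb, Serping1, Cd55, Cd59a and C1qtnf6. They were taken by symbol and not by a cut on any measured value, though the list was chosen with earlier results of these data known. Complement is a set of plasma and tissue proteins that cut one another in sequence, and the cut fragments tag cells and debris for uptake by phagocytes. In the classical route the C1q recognition molecule activates the proteases C1r and C1s, which cleave C4 and C2. The products of these cuts then cleave C3, the step at which all routes meet. Host cells hold the cascade back with secreted inhibitors, such as the C1 inhibitor, and with membrane proteins, such as CD55 and CD59. Tagging of dying cells by complement fragments is one of the ways in which phagocytes recognise them.

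The RNA came from mouse osteoblasts that were grown from adherent cells of bone pieces, matured in osteogenic medium and killed by exposure to ultraviolet light, with 3 libraries from young and 3 from old mice. The labels give no age in numbers, no strain and no modified genotype. They are silent on whether the 3 libraries of one age are 3 animals, 3 cultures or repeats of 1 culture, so every p-value here measures library-to-library spread that may be technical. Cells of both groups went through the same culture and the same killing, so no library shows live cells. In bulk RNA of this kind, fewer cells of a type and less RNA per cell cannot be told apart.

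Levels are in RPKM, reads scaled both to the length of the gene and to the reads of the library. This puts genes and libraries on a common scale, though sequence shared between genes, given below, can shift values of single genes. Scaling to the reads of a library does not remove every difference between libraries. Depth was 64881180 to 84535939 reads per library, recovered from the RPKM values. Of 9 osteoblast markers, 7 reached 1 RPKM in at least 1 library, led by the collagen gene Col1a1, while Alpl and Bglap stayed below 1 RPKM in all 6. Of 9 myeloid markers with values, Lyz2 and Cd68 reached 1 RPKM in at least 1 library, and the markers summed to 8.25 to 9.53 RPKM in young and 9.2 to 10.5 in old. The pan-leukocyte gene Ptprc and the macrophage gene Adgre1 were at most 0.00281 and 0.00763 RPKM. Of 3 cartilage markers with values, Col2a1 was at 21.5 to 53.6 and Sox9 at 12.7 to 19.7 RPKM, while Col10a1 was at most 0.0158 RPKM. Of 4 osteoclast markers Ctsk was at 27 to 36.5 RPKM in every library, while Acp5, Calcr and Ocstamp were at most 0.0127 RPKM. Young replicate 1 stood apart from every other library: across genes, which are not independent replicates, its Pearson's r on log2(RPKM + 1) with young replicates 2 and 3 was 0.9492 and 0.9616, where those 2 gave 0.9959 with each other and pairs of old libraries 0.9954 to 0.9972. Fold changes or adjusted p-values of tested genes are therefore given with and without it.

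The start regions of the members are shown first, because several complement genes are known to respond to interferon and inflammatory factors. RefSeq start regions (GRCm38.p6, the assembly also called mm10) were found for 6 of the 9 members: C1ra, C1s1, C3, Cd55, Cd59a and C1qtnf6. Of the 250 bases before the start of C1ra, 216 lie inside its deposited exons. C1s1 had 2 start regions, and 38 bases of the one not shown lie inside its deposited exons. The 250 bases before each start were searched on both strands for the core of the interferon-stimulated response element (GAAA, any 2 bases, GAAA), a STAT dimer site (TTC, any 3 bases, GAA) and a form of the NF-kappaB site (GGG, any 3 bases, TTCC), none of which overlapped another in these regions. They stood in 2.98%, 7.02% and 4.65% of 32851 start regions of the same length. Among the members there was 1 match, the interferon form before Cd59a, beginning 187 bases upstream of the start. The regions below are those of C1s1 and C1qtnf6, the members whose levels were lower in every old library, of C3, the member at the centre of the cascade, and of Cd59a, with the match in capitals. A match is a description of the letters, and its absence says only that these letters are not in this window.
C1s1, chr6:124542360-124542609, minus strand: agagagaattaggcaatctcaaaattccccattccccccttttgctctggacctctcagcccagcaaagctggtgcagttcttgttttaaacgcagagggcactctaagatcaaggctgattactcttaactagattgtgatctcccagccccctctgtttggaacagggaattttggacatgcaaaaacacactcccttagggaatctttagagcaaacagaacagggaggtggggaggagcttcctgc
C1qtnf6, chr15:78529652-78529901, minus strand: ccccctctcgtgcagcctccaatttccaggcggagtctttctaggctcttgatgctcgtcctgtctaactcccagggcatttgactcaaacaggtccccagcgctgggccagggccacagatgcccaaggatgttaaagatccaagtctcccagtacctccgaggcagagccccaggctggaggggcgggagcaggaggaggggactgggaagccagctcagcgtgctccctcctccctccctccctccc
C3, chr17:57228137-57228386, minus strand: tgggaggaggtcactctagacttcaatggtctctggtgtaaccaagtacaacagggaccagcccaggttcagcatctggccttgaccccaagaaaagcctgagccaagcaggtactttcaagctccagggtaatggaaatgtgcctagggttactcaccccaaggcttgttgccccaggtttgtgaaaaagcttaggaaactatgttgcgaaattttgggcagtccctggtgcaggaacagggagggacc
Cd59a, chr2:104095551-104095800, plus strand: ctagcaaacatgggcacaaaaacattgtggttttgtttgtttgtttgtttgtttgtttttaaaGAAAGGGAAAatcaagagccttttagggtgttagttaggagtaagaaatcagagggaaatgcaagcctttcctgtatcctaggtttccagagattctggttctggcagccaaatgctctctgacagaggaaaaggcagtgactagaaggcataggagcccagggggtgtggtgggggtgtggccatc

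The 9 members spanned a wide range of levels, and 3 of them made up nearly all of their summed RPKM. C1ra and C1s1, the genes of the proteases C1r and C1s, were the most abundant, at means of 55.9 and 33.2 RPKM over the 6 libraries. Only 1027 and 1629 of the 29587 genes had a higher mean. C3 followed at 14.1 RPKM and C1qtnf6 at 3.49 RPKM. Cfb, C4b and Cd59a were below 1 RPKM in every library, with means of 0.466, 0.214 and 0.0948 RPKM. Serping1 and Cd55 had at most 2 reads in any library. C1ra and C1s1 together held 81 to 88.3% of the summed RPKM of the members, which was 100 to 116 RPKM in young and 104 to 111 in old.

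**Figure D1:**
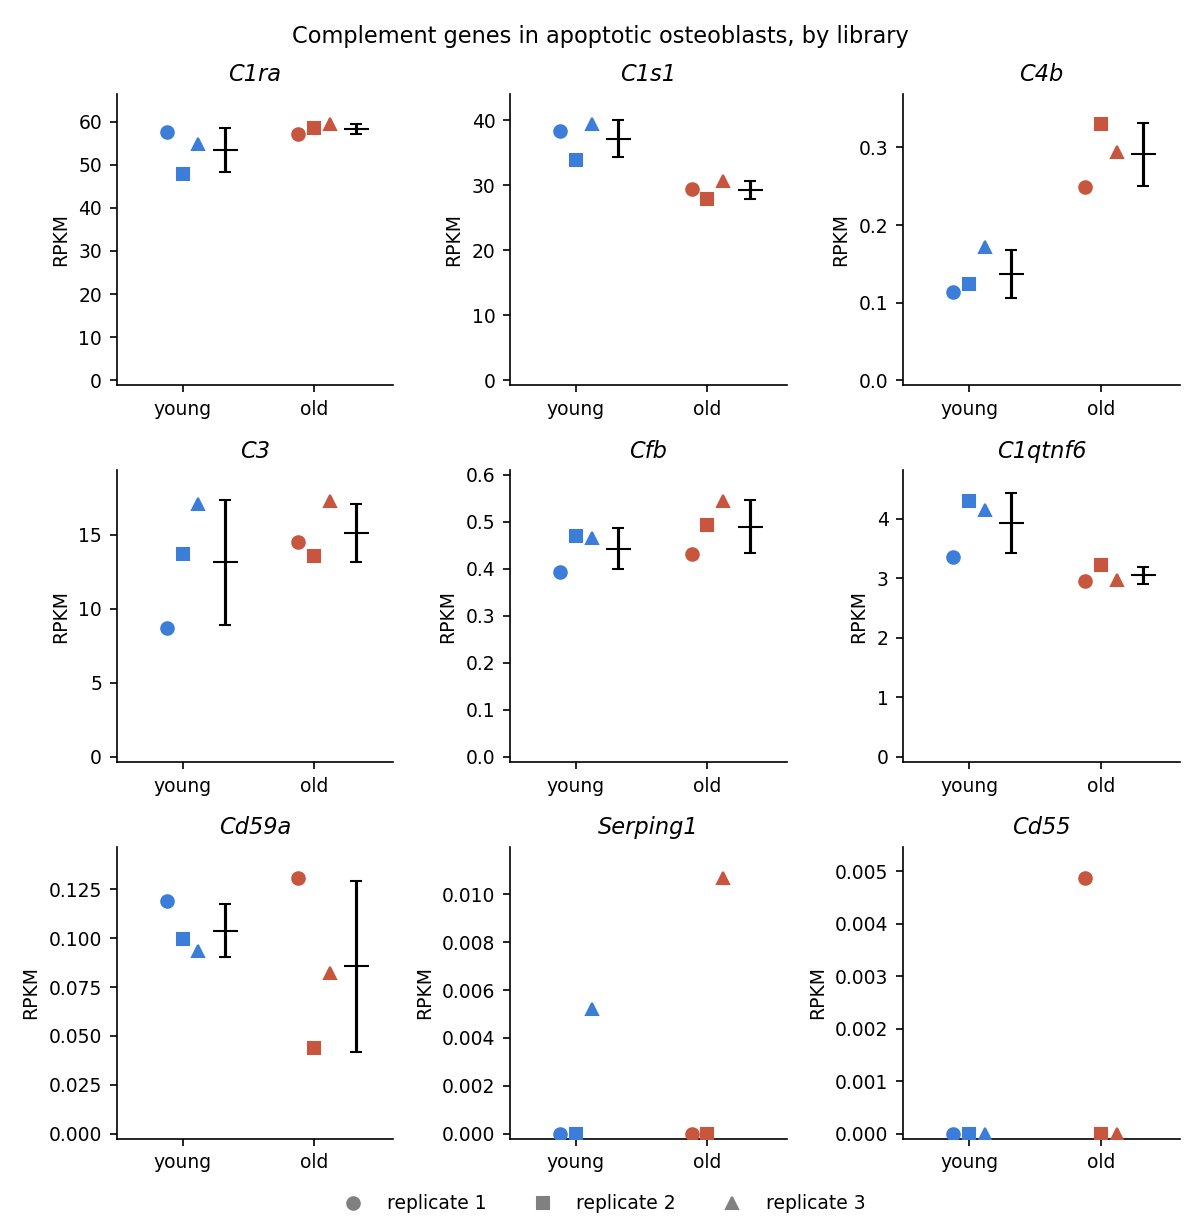
RPKM of each of the 9 members in the 3 young libraries (blue) and the 3 old libraries (red), with the replicate shown by the marker shape and the mean ± SD as a black bar, left out for Serping1 and Cd55, which had at most 2 reads. Old points of C1s1 and C1qtnf6 lie below all young points, those of C4b lie above them at levels below 1 RPKM, and the other panels overlap.

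Old against young was tested with limma on log2(RPKM + 1), for genes of at least 1 RPKM in at least 3 libraries, and a gene was called at a Benjamini-Hochberg adjusted p under 0.05. C3, C1ra, C1s1 and C1qtnf6 passed this filter, each with at least 1 RPKM in all 6 libraries. None of these 4 was called higher and none lower by limma, where 1.47% of the 12015 tested genes were called higher and 0.0999% lower. Limma's voom on the recovered reads also called 0 of the 4, with 1.35% of genes called higher and 0.0666% lower. At an unadjusted p under 0.05, 2 of the 4 were lower in old and 0 were higher, where 5.25% of the tested genes were lower and 5.98% higher at that level. Of these 4 members, the groups of 2 did not overlap, both with old lower. This held for 10.2% of the tested genes in that direction and 10.6% in the other. C4b, which did not pass the filter and is left out of these counts, did not overlap either, with old higher. The median log2 fold change of the 4 was -0.08, against 0.01 over all tested genes. With library weights, which limma takes from how far each library departs from its group, C1s1 and C1qtnf6 were called lower in a fit that called 24.6% of genes lower and 17.6% higher. With the replicate number as a block, 0 members were called, with 0% of genes lower and 0.682% higher.

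C1s1, which encodes the protease that cleaves C4 and C2, lies on chromosome 6 (124530345 to 124542359, mm10, minus strand). It was at 38.3, 33.9 and 39.4 RPKM in young replicates 1, 2 and 3 and at 29.4, 27.9 and 30.6 RPKM in old replicates 1, 2 and 3. All 3 old libraries were below all 3 young ones. The means were 37.2 ± 2.91 and 29.3 ± 1.39 RPKM (SD, n = 3 each), 1.27-fold higher in young. The log2 fold change of C1s1 was -0.33 ± 0.10 (SE, 95% interval -0.56 to -0.10), with a limma adjusted p of 0.243 (0.0127 before adjustment). Without young replicate 1 it was -0.31 ± 0.08 with a limma adjusted p of 0.0257, in a fit that called 19.4% of all tested genes lower. Over the other settings the adjusted p of C1s1 ran from 0.00193 to 0.808.

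A predicted antisense gene, Gm16567, lies wholly inside C1s1 exons on the opposite strand: all 576 of its exon bases are also C1s1 exon bases, 18.4% of C1s1. It was at 75.9, 67.1 and 79.9 RPKM in young and 59.7, 61 and 63.9 RPKM in old, and its groups did not overlap either. Its reads came to 36.5 to 40.3% of the number of C1s1 reads in each library. Whether the counting used strand is not given in the sources used here, so reads of this pair cannot be told apart, and the value of C1s1 is uncertain to that extent. In addition 21.8% of the 50-base windows of C1s1 transcripts stand unchanged in transcripts of its copy C1s2, which was at 0.0637 to 0.195 RPKM.

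C1ra, which encodes the protease that activates C1s, lies next to C1s1 (chromosome 6, 124512405 to 124523443, mm10, plus strand). It was at 57.7, 47.8 and 54.7 RPKM in young and 57.1, 58.5 and 59.4 RPKM in old, and the groups overlapped through young replicate 1. The log2 fold change was 0.13 ± 0.10 (SE, 95% interval -0.11 to 0.37, limma adjusted p = 0.812). Without young replicate 1 it was 0.19 with an adjusted p of 0.0713, and over all 16 other settings this p ran from 0.0713 to 1. Of the 50-base windows of C1ra transcripts, 48% are also found in those of C1rb, a neighbouring copy. C1rb was at 1.84, 4.16 and 4.38 RPKM in young and 4.24, 4.14 and 4.34 RPKM in old, with young replicate 1 lowest, so reads can have been split between the copies.

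The ratio of the 2 protease genes was looked at after their values were seen, C1s1 having no overlap between the groups, so it restates those values and is given with no test. C1ra over C1s1 in RPKM was 1.51, 1.41 and 1.39 in the young libraries and 1.94, 2.1 and 1.94 in the old. All old libraries were above all young ones, young replicate 1 included, and a ratio within a library does not depend on the scaling between libraries. The means were 1.44 ± 0.0614 and 1.99 ± 0.093 (SD, n = 3 each). Both genes belong to a cluster of 5 genes on chromosome 6 (C1rl, C1ra, C1s1, C1rb and C1s2) that spans 142973 bases. Its member C1rl, a relative of C1r, had means of 5.4 ± 0.563 in young and 5.57 ± 0.236 in old libraries (RPKM ± SD, n = 3 each).

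**Figure D2:**
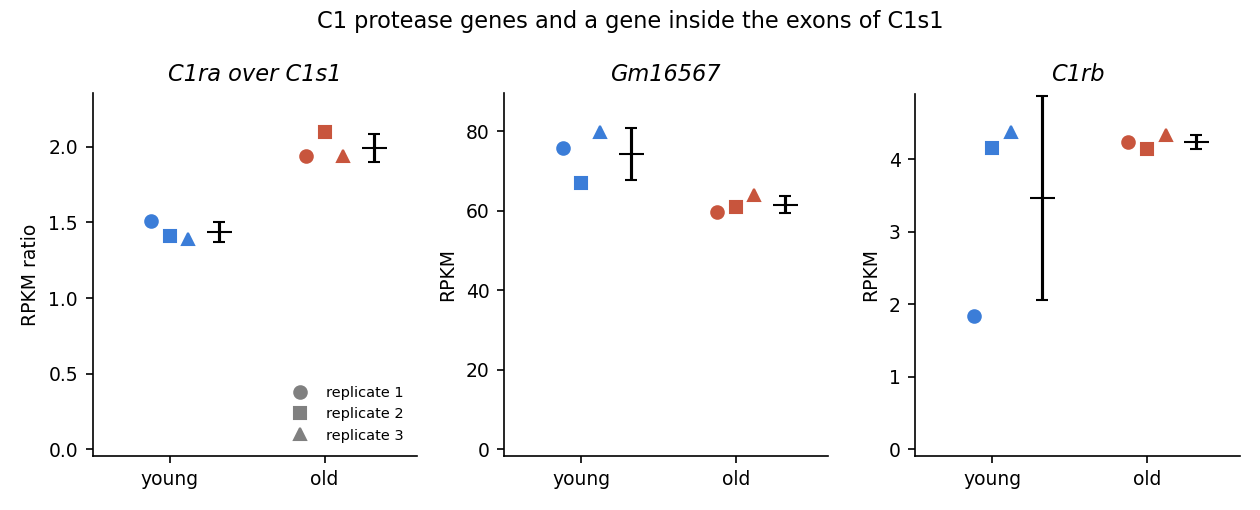
Left, RPKM of C1ra divided by RPKM of C1s1; middle, RPKM of Gm16567, which lies inside C1s1 exons; right, RPKM of C1rb, a copy of C1ra, each in the 3 young (blue) and 3 old (red) libraries with the mean ± SD as a black bar. The ratio is 1.39 to 1.51 in young and 1.94 to 2.1 in old, and young replicate 1 is the lowest point for C1rb.

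The substrate of these proteases was found at low levels. C4b, which encodes C4, the first target of C1s (chromosome 17, 34728380 to 34743882, mm10), had 42, 55 and 81 reads in the young libraries and 120, 142 and 135 in the old. In RPKM these were 0.114, 0.124 and 0.172 in young and 0.249, 0.33 and 0.294 in old. All 3 old libraries were above all young ones, at a ratio of mean RPKM of 2.13. How often groups did not overlap among genes below the filter was not counted. C4b did not pass the filter, and in the fit without a filter its log2 fold change on the log2(RPKM + 1) scale was 0.18 ± 0.04 (SE, limma adjusted p = 0.143, 0.00225 before adjustment). That scale understates changes at such low levels. With voom on the reads of every gene with at least 10 reads in at least 3 libraries, a setting chosen after seeing the data, it was 1.08 ± 0.22 (limma adjusted p = 0.102), and that fit called 1.23% of its genes higher and 0.0402% lower. Without a filter and without young replicate 1, also chosen after seeing the data, the adjusted p was 0.0798, in a fit that called 2.98% of genes higher and 2.75% lower. C4b was therefore not called in any fit in which it was tested. Its near-identical copy C4a shares 34.6% of the 50-base windows of C4b and was at 0.193 ± 0.0416 and 0.197 ± 0.0192 RPKM (SD, n = 3 each), with overlapping groups.

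C3, whose cleavage product tags surfaces for uptake, was a moderately abundant transcript that did not separate the groups. C3 lies on chromosome 17 (57203970 to 57228136, mm10). Its level was 8.68, 13.7 and 17.1 RPKM in young and 14.5, 13.6 and 17.3 RPKM in old. Young replicate 1 was the lowest of the 6 libraries, while young replicates 2 and 3 fell within the range of the old libraries. The log2 fold change was 0.23 ± 0.24 (SE, 95% interval -0.35 to 0.80, limma adjusted p = 0.905). Without young replicate 1 its sign turned, to -0.03 ± 0.12 (adjusted p = 0.88, from 0.331 to 1 over the other settings). The interval over all 6 libraries, -0.35 to 0.80, holds changes of C3 in either direction, so neither a rise nor a fall was shown.

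Cfb encodes factor B, the protease of the alternative route, which amplifies C3 cleavage (chromosome 17, 34856374 to 34862518, mm10, minus strand). It was at 0.393, 0.47 and 0.465 RPKM in young and 0.431, 0.493 and 0.544 RPKM in old, from 72 to 124 reads per library. The groups overlapped, and in the fit without a filter the log2 fold change was 0.05 ± 0.05 (SE, limma adjusted p = 0.87). With young replicate 1 also left out it was 0.02 ± 0.05 (SE, limma adjusted p = 0.848). Cfb shares 79.5% of its exon bases with the predicted gene Gm20547 on the same strand. Gm20547 had 100 to 101% as many reads as Cfb in each library, so the same reads may stand under both names.

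Among the inhibitors, the members Serping1 and Cd55 were near or at 0, as were Cfi and C4bp (at most 0.0266 and 0.00687 RPKM). Other regulators were higher: Cr1l, given below, passed the filter. Clu and Cd46 did not pass it, at 0.671 to 0.996 and 0.159 to 0.216 RPKM. The groups of Clu did not overlap, with old lower, and those of Cd46 overlapped. Serping1, which encodes the C1 inhibitor that disables C1r and C1s (chromosome 2, 84765387 to 84775444, mm10), had 1 read in young replicate 3, 2 in old replicate 3 and 0 in the other 4 libraries. Cd55, which encodes a membrane protein that breaks up the enzymes that cleave C3 (chromosome 1, 130439027 to 130462744, mm10), had 2 reads in old replicate 1 and 0 in the other 5. If reads are taken as independent, a count of 0 allows up to 3 reads. That is 0.0153 to 0.0199 RPKM for Serping1 and 0.00731 to 0.00953 RPKM for Cd55, depending on the library (counting error only). Most small counts here were even, so reads are not independent, and this floor can lie higher. Both genes were at or under this floor in both groups, and no fold change is given. No transcript window of Serping1 was shared with another gene, and 8% of those of Cd55 were shared with its copy Cd55b, which was not analysed here.

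Cd59a, which encodes a membrane protein that blocks the pore-forming end of the cascade (chromosome 2, 104095801 to 104115354, mm10), had 14 reads in each young library and 20, 6 and 12 in old. This was 0.119, 0.0996 and 0.0932 RPKM in young and 0.131, 0.0439 and 0.0821 RPKM in old, with the groups overlapping. Without a filter its log2 fold change was -0.03 ± 0.03 (SE, limma adjusted p = 0.877). With young replicate 1 also left out it was -0.02 ± 0.04 (SE, limma adjusted p = 0.846), and at this depth no difference was detected. This is the member with the interferon-type match in its start region shown above. Its copy Cd59b had reads in young replicate 3 alone, at 0.0186 RPKM.

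C1qtnf6 encodes a secreted relative of C1q that has been described as an inhibitor of the alternative route. C1qtnf6 (chromosome 15, 78523346 to 78529625, mm10, minus strand) was at 3.36, 4.3 and 4.14 RPKM in young and 2.96, 3.22 and 2.97 RPKM in old. All old libraries were below all young ones, with young replicate 1 the nearest to them. The means were 3.93 ± 0.505 and 3.05 ± 0.144 RPKM (SD, n = 3 each), 1.29-fold higher in young. The log2 fold change was -0.28 ± 0.11 (SE, 95% interval -0.54 to -0.02), with a limma adjusted p of 0.395 (0.0368 before adjustment). Without young replicate 1 C1qtnf6 was lower at -0.37 ± 0.06 (limma adjusted p = 0.00825, from 0.000981 to 0.99 over the other settings). C1s1 and C1qtnf6 were thus the 2 of 4 tested members called lower without that library, in a fit that called 19.4% of all tested genes lower and 13.2% higher. Of its relatives, C1qtnf3 alone passed the filter, at 6.21 ± 2.67 and 4.77 ± 0.3 RPKM (SD, n = 3 each). On the log2 scale it differed by -0.25 ± 0.28 (SE), with a limma adjusted p of 0.918. C1qtnf3 was called lower without young replicate 1, at -0.57 ± 0.11 (adjusted p = 0.0122), and with library weights, at -0.41 ± 0.09 (adjusted p = 0.0082), and was at 0.00 ± 0.24 without young replicate 2 (adjusted p = 0.998, from 0.0082 to 1 over all settings).

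The rest of the pathway was read from 48 listed genes, of which 37 had values and 7 passed the filter. Limma called 0 of these 7 in either direction, and 0 had an unadjusted p under 0.05. With voom on the same genes the count was also 0. Recognition molecules of the classical route were at or near 0 while their proteases were abundant: C1qb had 2 reads in each of old replicates 1 and 2 and C1qc had 2 in old replicate 3, with 0 in every other library. C1qa was not analysed here. On the lectin route, which starts from sugar-binding molecules, Fcna, Colec10 and Colec11 were at most 0.0469, 0.0173 and 0.326 RPKM. The scavenger collectin gene Colec12 had means of 29.1 ± 10.2 in young and 32.9 ± 2.79 in old libraries (RPKM ± SD, n = 3 each). The lectin route proteases Masp1 and Masp2 were at 2.24 ± 1.35 and 2.98 ± 0.423 RPKM and at 1.07 ± 0.337 and 1.08 ± 0.136 RPKM. Young replicate 1 was the lowest library for Colec12, Masp1 and Masp2, as it was for C3 and C1rb, and what set this library apart was not tested.

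Cr1l, which encodes Crry, the rodent membrane regulator of C3, passed the filter and acts on the same cascade step as Cd55. Cr1l was at 2.16 ± 0.286 and 2.07 ± 0.0286 RPKM (SD, n = 3 each), with a limma adjusted p of 0.975. C1qbp, whose product binds C1q and resides mainly in mitochondria, was at 28.8 ± 7.05 and 31.7 ± 1.57 RPKM (SD, n = 3 each, limma adjusted p = 0.907) and was called higher without young replicate 1, at 0.35 ± 0.06 (adjusted p = 0.00882, from 0.00285 to 1 over the other settings).

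The remaining 30 listed genes with values did not pass the filter, and 19 of them were below 0.1 RPKM in every library. These 19 held the terminal components Hc, C7, C8a and C8b and the receptors C3ar1, C5ar1 and Cr2. C8g, which encodes another chain of C8, was higher than these, at 0.308 ± 0.17 and 0.278 ± 0.0393 RPKM (SD, n = 3 each), with overlapping groups. C2, the other target of C1s, was at 0.163 ± 0.0461 and 0.216 ± 0.0488 RPKM (SD, n = 3 each), with overlapping groups. Itgb2, the shared chain of the leukocyte complement receptors, had 10, 6 and 7 reads in young and 42, 55 and 60 in old, or 0.0253 to 0.0505 and 0.163 to 0.243 RPKM. Without a filter its limma adjusted p was 0.053. With young replicate 1 also left out, chosen after seeing the data, Itgb2 was called higher at 0.24 ± 0.04 (SE, limma adjusted p = 0.0355). That fit called 2.98% of genes higher. In the voom fit with at least 10 reads, also chosen after seeing the data, it was called higher at 2.62 ± 0.38 (SE, limma adjusted p = 0.025). That voom fit called 1.23% of genes higher. Among the young libraries only replicate 1 reached 10 reads, so Itgb2 entered this fit through its old libraries. The voom call is therefore no separate support for the difference. The partner chain Itgam stayed below 0.1 RPKM. Of the 9 myeloid markers with values, Lyz2 was at 6.53 to 8.53, Cd68 at 0.54 to 1.04, Csf1r at 0.36 to 0.618 and Cd14 at 0.307 to 0.662 RPKM over the 6 libraries, each with overlapping groups. The other 5 (Ptprc, Adgre1, Aif1, Fcgr1 and Mrc1) were at most 0.0183 RPKM, and the part of such cells in the Itgb2 values was not tested.

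**Figure D3:**
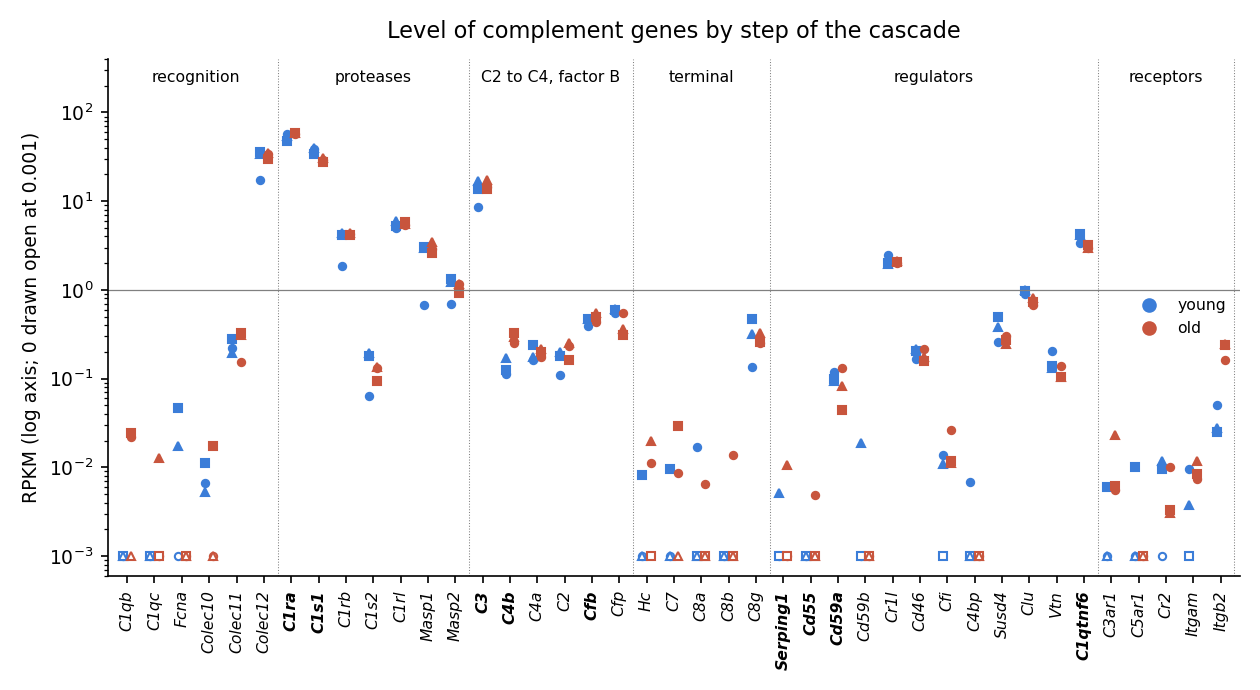
RPKM on a log axis of complement genes in each young (blue) and old (red) library, ordered by step of the cascade, with the 9 members in bold, the replicate as marker shape, values of 0 drawn open at 0.001 and a line at 1 RPKM. Of the genes drawn, which leave out C1qbp, C1ra, C1s1, Colec12 and C3 stand highest, while C1qb, C1qc, Serping1, Cd55 and the terminal components other than C8g lie near 0.

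**Figure D4:**
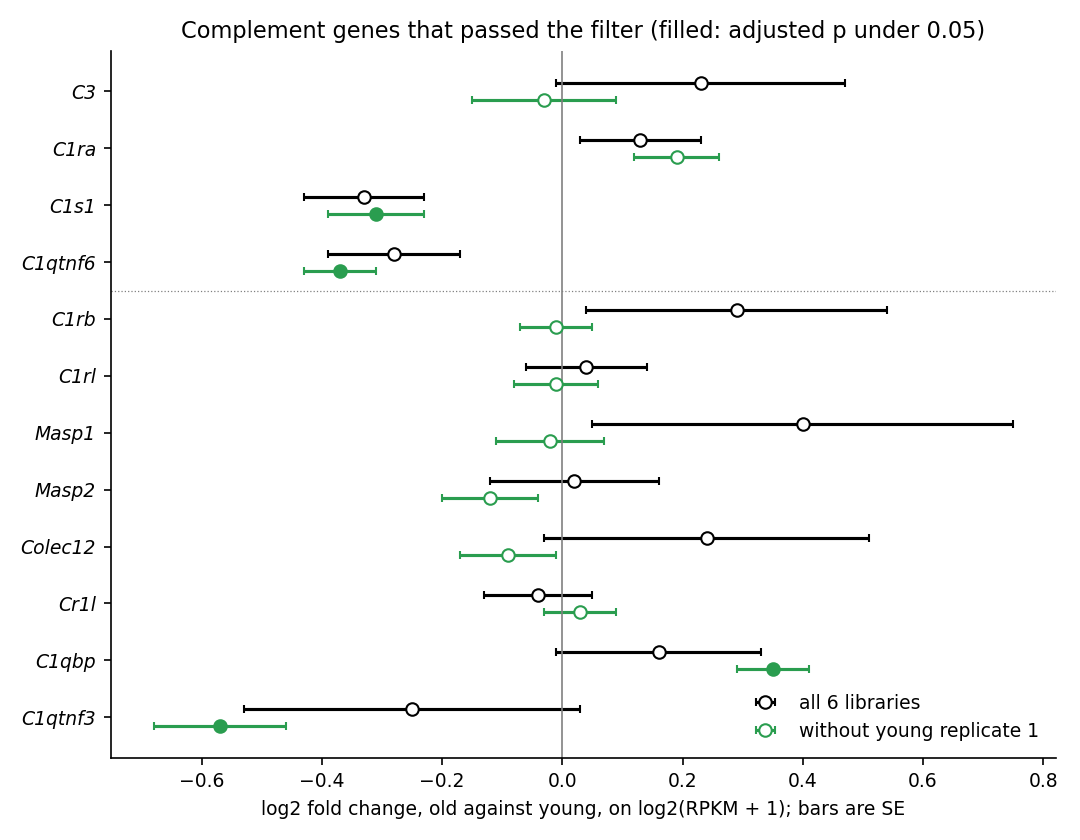
Log2 fold change of old against young on log2(RPKM + 1) with its SE, for the 4 members (above the dotted line) and 8 related genes that passed the filter, with all 6 libraries (black) and without young replicate 1 (green), filled where the limma adjusted p is under 0.05. No gene is filled with all 6 libraries, and C1s1, C1qtnf6, C1qbp and C1qtnf3 are filled without young replicate 1.

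The genes whose pattern over the 6 libraries was most like each tested member were taken by Pearson's r on log2(RPKM + 1), as a description. For C3 they were Ckap4 (r = 0.9949), Gm6055 (0.9936) and Cp (0.9923), of 564 genes above 0.9. For C1s1 they were Slc35e3 (0.9955), Nck2 (0.9889) and Mpi (0.9887), of 198 genes. C1ra was nearest to D8Ertd738e (0.9929), Snord58b (0.9815) and Itm2c (0.9744), of 94 genes, and C1qtnf6 to Rnf24 (0.9926), Zfp449 (0.9918) and Pnisr (0.9912), of 281 genes. With 6 libraries and 12015 genes such values are common, and they share the libraries and their scaling.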

How the data were processed

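The authors deposited RPKM values for 3 young and 3 old libraries, with the exon positions and length of each gene in bases as a further column. Per the submitters' processing notes, fastp, STAR, HTSeq, edgeR and the build mm10 were used. The sources used here give no version, setting or annotation, nor whether strand was used. RPKM times length summed to 1000000 per library, and 100% of the values came out as whole reads within 0.01, of which 77.5 to 79.3% were even among genes with 1 to 5 reads, so reads are not independent molecules.

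Old was compared with young by limma 3.58.1 (R 4.3.3) on log2(RPKM + 1), with a variance trend, two-sided, Benjamini-Hochberg adjusted over 12015 genes with at least 1 RPKM in at least 3 libraries. Folds are on that scale, and ratios of mean RPKM have no pseudocount. The procedure was tested on simulated data with the spread of the old libraries. That test therefore does not cover a library that stands apart, such as young replicate 1. Named were all 9 members, listed pathway genes that passed the filter (1 listed gene is not reported here), copies of members and the 3 nearest genes by pattern. Itgb2, C2, Clu, Cd46, Colec11 and the genes named at or near 0 were chosen after their values were seen. The members and lists were chosen with earlier results of these data known. Alternatives covered the pseudocount, filter, scaling, variance model, library weights, threshold, replicate number and each library. Two-sided intervals are at 95%. A 50-base window counted as shared when it stood in a transcript of another gene (GENCODE M21), on either strand.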

Additional observations from a re-analysis of the deposited data

How the results depend on the processing

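The count of called members (0 higher, 0 lower) was unchanged except for lower calls. These were 2 of 4 with library weights, where 24.6% of all tested genes were called lower. Without young replicate 1 they were 2 of 4, where 19.4% were lower, so 0 to 2 over the fits that left out 1 library. Without a filter and without young replicate 1, chosen after seeing the data, 1 of 9 was called, where 2.75% of genes were lower. Of the pathway genes, 0 were called lower in any setting, and the higher count of 0 moved as follows. It was 1 of 7 with library weights, where 17.6% of all tested genes were called higher. Without young replicate 1 it was 1 of 7, where 13.2% were higher (0 to 1 over left-out libraries). In voom with at least 10 reads it was 1 of 18, where 1.23% were higher. That gene was Itgb2, which entered the voom fit through its old libraries. Without a filter and without young replicate 1 it was 2 of 36, where 2.98% were higher.

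Over all genes the main counts were 177 higher and 12 lower. They were 99 higher at a mean RPKM of at least 5, 2119 and 2957 with library weights, 866 and 801 without a filter and without young replicate 1, 62 lower at an adjusted p under 0.1, and 7 lower in voom with at least 10 reads. Leaving out 1 library gave 80 to 1589 higher and 0 to 2329 lower. With the replicate number as a block there were 82 higher and 0 lower, and no member was called. Same-numbered libraries deviated from their group means at correlations of -0.0257, -0.436 and 0.329, and not every library correlated best with its own number. With 3 libraries per group such correlations cannot tell whether equal numbers mark a shared animal or batch.

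Signs turned for C3 and several related genes, none of which was called in the main comparison. Without young replicate 1 the log2 values were -0.03 for C3, -0.01 for C1rb and C1rl, -0.09 for Colec12, -0.02 for Masp1, -0.12 for Masp2 and 0.03 for Cr1l. Over all left-out libraries these ran from -0.03 to 0.43, -0.01 to 0.45, -0.01 to 0.11, -0.09 to 0.41, -0.02 to 0.61, -0.12 to 0.10 and -0.08 to 0.03 for C3, C1rb, C1rl, Colec12, Masp1, Masp2 and Cr1l, and from -0.57 to 0.00 for C1qtnf3. With library weights they were -0.12 for C3, -0.02 for C1rb, -0.09 for C1rl, -0.04 for Colec12, -0.07 for Masp2 and 0.03 for Cr1l. Masp2 was at -0.06 with quantile normalization. C1s1 and C1qtnf6 stayed negative and C1ra positive in every setting in which they were tested. The cause of these shifts was not tested.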
